A study of Homo sapiens with 8 samples.

Results

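The integrins are the receptors with which cells hold the extracellular matrix, and the laminins are the matrix proteins of basement membranes that several of them bind. The genes described here are 35 listed by symbol, 8 integrin β chains, 17 integrin α chains and 10 laminin chains, each matched to its Ensembl gene in the table of counts. Of the 35, 34 reached 10 counts when the 8 libraries were added up and were tested among 18203 genes, while ITGA11 fell under this limit. RNA was sequenced from NCI-H1581 and NCI-H1703, established lines of human non-small cell lung cancer that are sensitive to FGFR inhibition, as well as from NCI-H1581R and NCI-H1703R, which were derived from them. These resistant cells had been grown for 4 to 6 months in rising doses of the FGFR inhibitor CPL304110, from 50 nM up to 2.5 µM for NCI-H1581R and 5 µM for NCI-H1703R, and the sensitive cells had not. Each of the 4 groups has 2 replicates, which are repeat cultures of a single line or variant, so the p-values measure only the spread between these cultures. All cells were harvested 24 h after fresh medium, for which the labels do not say whether it held the inhibitor. The lines were kept in different media, so line and medium cannot be told apart. With a single resistant variant per line, resistance, time in culture and exposure to the inhibitor cannot be told apart within a line.

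An integrin is a pair of 1 α and 1 β chain, and the pairing sets what the receptor binds. The β1 chain, from ITGB1, pairs with most α chains, including the laminin-binding α3, α6 and α7 chains from ITGA3, ITGA6 and ITGA7. The αv chain, from ITGAV, pairs with several β chains, β5 from ITGB5 among them, to bind vitronectin and other ligands with the RGD motif. The α6 chain also pairs with β4, from ITGB4, in the hemidesmosomes of epithelia. A laminin is a trimer of an α, a β and a γ chain, and the α chain carries the main binding sites for integrins. Inside the cell, talins and kindlins bind the β chain and switch the integrin on, and kinases such as FAK and SRC signal from the adhesions.

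The libraries held between 33800389 and 40031710 counts. Levels are given as CPM, the counts scaled to a common library size after TMM normalisation. On this scale 3 counts, taken here as the upper limit for a count of 0, correspond to 0.0749 to 0.0897 CPM. That limit covers counting error only and is not a hard bound. All 4 groups expressed the mesenchymal marker VIM at 2634 to 6711 CPM, whereas the epithelial markers EPCAM and CDH1 stayed at or below 15.9 CPM. The other mesenchymal markers did not follow VIM. CDH2 was at 48.6 to 50.2 CPM in NCI-H1703 and at 1.08 to 1.16 CPM in NCI-H1703R, with at most 3.53 CPM in the NCI-H1581 and NCI-H1581R libraries. ZEB1 was at 1.66 to 2.30 CPM in NCI-H1581, at 18.9 to 31.7 CPM in NCI-H1581R and at 25.5 to 33.6 CPM in the NCI-H1703 and NCI-H1703R libraries. In NCI-H1581 the summed level of 5 epithelial markers lay at 19.0 to 22.7 CPM and in NCI-H1581R at 13.1 to 15.1 CPM. In NCI-H1703R, the summed level lay at 6.76 to 8.41 CPM against 73.3 to 75.6 CPM in NCI-H1703. Most of that sum was the keratin gene KRT18, at 64.3 to 65.4 CPM in NCI-H1703 and 2.48 to 2.88 CPM in NCI-H1703R. The leukocyte marker PTPRC never passed 0.399 CPM, and CD3E was at 0 in all libraries. The libraries come from bulk RNA, in which fewer cells of a type and less RNA per cell cannot be told apart.

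The expressed integrins and laminins were few. There were 9 members above 10 CPM in every library, namely ITGB1, ITGA5, ITGA6, ITGAE, ITGAV, LAMA5, LAMB2, LAMC1 and LAMC3. At the other end, 6 members never passed 1 CPM, and 11 had fewer than 3 counts in at least 1 library. The latter include the leukocyte chains ITGAL, ITGAM and ITGAX, the epithelial chain ITGB6 and the laminin chain LAMA4.

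**Figure D1:**
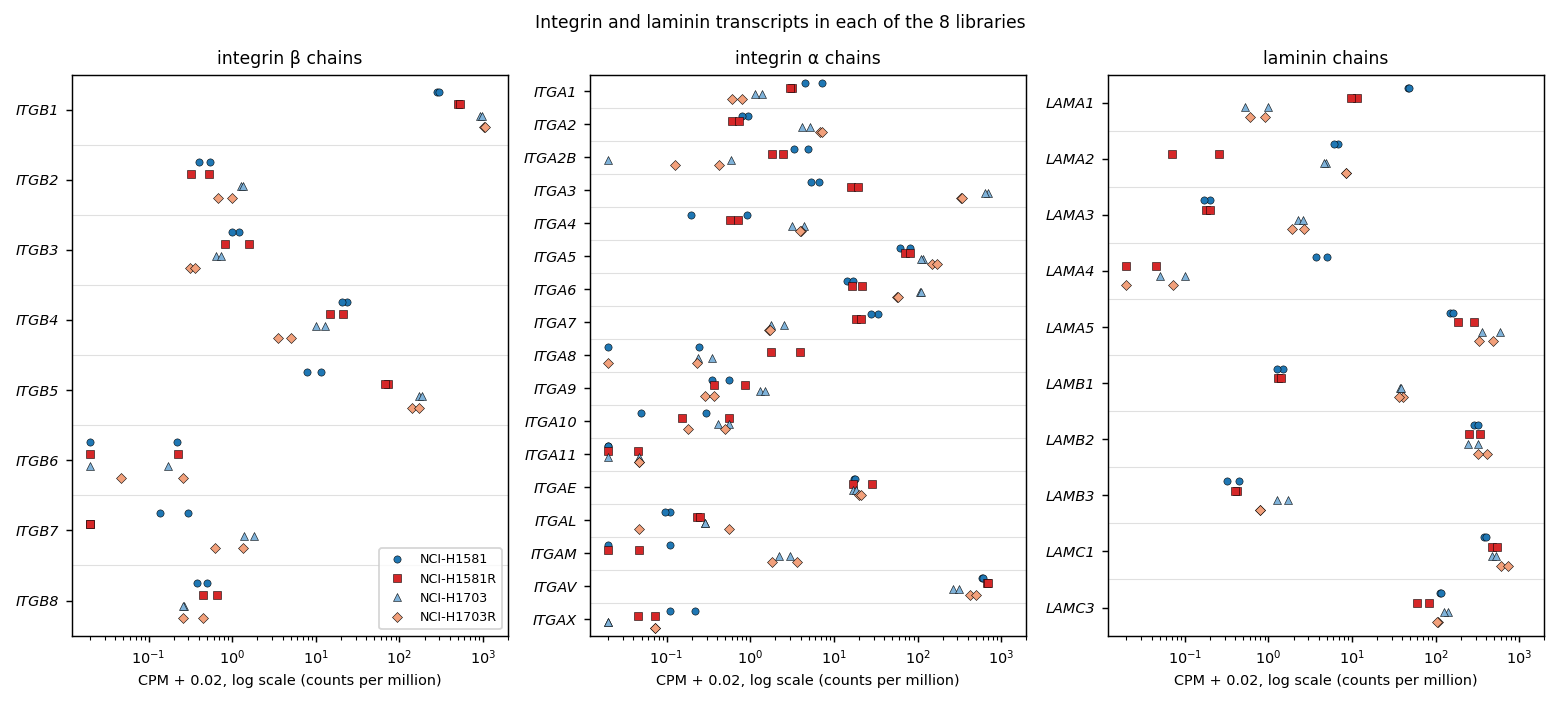
CPM of the 35 members in each library, on a log scale after adding 0.02 so that zeros can be drawn. Each point is a library, with 2 per group. ITGB1, ITGAV, LAMB2 and LAMC1 sit above 240 CPM in all 8 libraries, ITGA3 separates the lines, and LAMA4 passes 3 CPM in NCI-H1581 only.

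Levels of different genes were compared per kb of merged exons. ITGB1 made up most of the β chain RNA in every group, from 68.5% ± 0.2 (SD, n = 2) of the summed CPM per kb in NCI-H1703 to 79.6% ± 2.8 in NCI-H1581. ITGB5 held 6.05% ± 1.65 of it in NCI-H1581, 22.2% ± 2.0 in NCI-H1581R, 29.0% ± 0.6 in NCI-H1703 and 24.8% ± 2.4 in NCI-H1703R. ITGB4 was the second β chain of NCI-H1581 alone, with 13.1% ± 1.3, and held 0.662% ± 0.196 in NCI-H1703R. Thus a β1 and β5 pattern was shared by 3 of the groups.

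The α chains divided the lines. ITGAV led in NCI-H1581 and NCI-H1581R, with 60.8% ± 2.3 and 62.2% ± 0.6 of the α chain RNA per kb. In NCI-H1703 the leading chain was ITGA3 with 56.9% ± 2.2, and ITGAV held 12.6% ± 1.6. NCI-H1703R lay between these patterns, with 36.8% ± 1.7 for ITGA3 and 25.3% ± 1.3 for ITGAV. The share of ITGA3 in the NCI-H1581 cells was 1.20% ± 0.21, and 3.12% ± 0.32 after resistance.

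Among laminins, LAMC1 and LAMB2 were the main chains in all groups. LAMC1, the common γ1 chain, held 39.3% ± 0.9 to 47.2% ± 3.3 of the laminin RNA per kb, and LAMB2, the β2 chain, held 27.2% ± 2.3 to 37.4% ± 0.9. LAMA5 was the most abundant α chain, with 9.24% ± 0.20 in NCI-H1581 and 21.5% ± 5.1 in NCI-H1703. The summed level of the γ chains was 59.0 ± 1.7 CPM per kb in NCI-H1581, that of the β chains 44.1 ± 3.4 and that of the α chains 14.4 ± 0.9. The α chains were the lowest of these sums in the other 3 groups as well, at 17.1 ± 4.9 CPM per kb in NCI-H1581R, 33.3 ± 11.3 in NCI-H1703 and 28.8 ± 7.6 in NCI-H1703R.

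**Figure D2:**
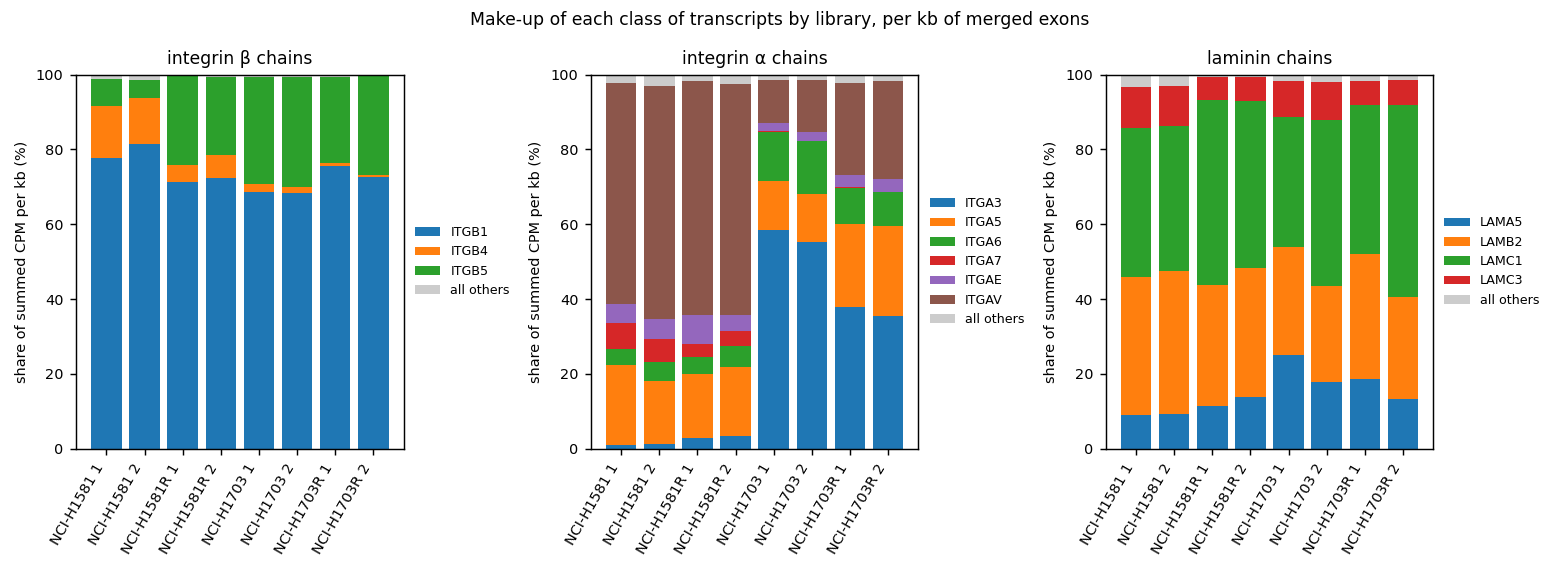
Share of each chain in the summed CPM per kb of its class, for every library, in percent. Bars are single libraries and grey stands for all chains that never reach 5%. ITGAV fills over 59% of the α chain RNA in the NCI-H1581 and NCI-H1581R libraries, and ITGA3 fills 55.4% to 58.5% in NCI-H1703.

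Resistance in the NCI-H1581 background came with more RNA for the αvβ5 partner chain and with less for 3 of the 5 laminin α chains. Of the 34 members tested, 7 were called, which means an adjusted p under 0.1 in edgeR's quasi-likelihood test over all 18203 genes. Of all genes, 15.1% were called in this comparison, 7.63% higher and 7.44% lower. The integrin genes ITGB1, ITGB5, ITGA3 and ITGA8 rose, and the laminin genes LAMA1, LAMA2 and LAMA4 fell. DESeq2 called 9 members, 4 higher and 5 lower, beside 3223 of all genes. With RLE normalisation edgeR also called 9, 4 higher and 5 lower, beside 2728 of all genes. The median log2 fold change of the members was 0.07, beside 0.04 over all genes. The CPM of the groups did not overlap for 18 of the 34 members, beside 50.6% of all genes. When NCI-H1581 replicate 1 was left out 4 members and 1160 of all 18203 genes were called, in place of 7 and 2743. Without NCI-H1581R replicate 1 or 2, 11 members were called in each fit, beside 5185 and 3981 of all genes.

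Among β chains, 2 of 8 rose and none fell, and the other 6 did not pass the test. ITGB5 (chr3:124761948-124901418, minus strand, GRCh38) stood at 11.7 and 7.91 CPM in NCI-H1581 and at 73.7 and 67.9 CPM in NCI-H1581R. The groups are far apart, and the rise was 7.33-fold (log2 fold change 2.87, SE 0.23, edgeR adjusted p = 0.000568). ITGB1 (chr10:32887273-33005792, minus strand), which encodes the shared β1 chain, was at 280.3 and 296 CPM in the sensitive cells. Its level in the resistant cells was 497 and 528 CPM, a 1.79-fold rise (log2 fold change 0.84, SE 0.17, edgeR adjusted p = 0.0274). That call was lost when either NCI-H1581 library was left out, with log2 fold changes of 0.78 without replicate 1 and 0.88 without replicate 2. ITGB4, at 23.6 and 20.5 CPM in NCI-H1581, overlapped with NCI-H1581R at 14.7 and 21.0 CPM.

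Of the 3 laminin-binding α chains, 1 rose. ITGA3 (chr17:50055968-50090481, plus strand) had 5.34 and 6.57 CPM in NCI-H1581 and 15.8 and 19.3 CPM in NCI-H1581R. This 2.95-fold rise (log2 fold change 1.56, SE 0.24, edgeR adjusted p = 0.0105) was called except when NCI-H1581 replicate 1 was left out, where the log2 fold change was 1.41. ITGA6 stood at 14.2 and 17.0 CPM against 16.7 and 21.6 CPM, with overlapping groups. ITGA7, the α7 chain of muscle, had 33.6 and 27.5 CPM in NCI-H1581 and 18.4 and 21.1 CPM in NCI-H1581R. The groups do not overlap, but the difference did not pass the test (log2 fold change -0.62, SE 0.19, edgeR adjusted p = 0.107).

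Among the 4 RGD-binding α chains only ITGA8 was called. ITGA8 (chr10:15513954-15719922, minus strand), whose product pairs with β1 and binds nephronectin, had 0 and 9 counts in NCI-H1581 and 66 and 153 counts in NCI-H1581R. Even the higher value is only 3.89 CPM. The fitted rise was 22.8-fold (log2 fold change 4.51, SE 0.94, edgeR adjusted p = 0.0263), and it fell short of the threshold without NCI-H1581 replicate 1, at a log2 fold change of 3.63. ITGAV, the most abundant α chain, stood at 595 and 602 CPM against 675 and 699.6 CPM. The difference of 0.21 (SE 0.17) on the log2 scale did not pass the test (edgeR adjusted p = 0.539). ITGA5, the fibronectin receptor α5, overlapped between the groups, at 82.0 and 61.5 CPM against 70.2 and 80.4 CPM. None of the 3 collagen-binding, 2 α4 and α9 and 4 leukocyte α chains tested was called. ITGAE, by level the main chain of that last class, stood at 17.4 and 17.7 CPM in NCI-H1581 and 28.3 and 16.7 CPM in NCI-H1581R.

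The laminin α chains gave the largest falls. LAMA1 (chr18:6941742-7117797, minus strand), the α1 chain of embryonic basement membranes, dropped from 46.1 and 47.5 CPM in NCI-H1581 to 11.4 and 9.83 CPM in NCI-H1581R. It was thus 4.39-fold lower (log2 fold change -2.13, SE 0.19, edgeR adjusted p = 0.000895). LAMA2 (chr6:128883138-129516566, plus strand), the α2 chain of muscle and nerve, had 231 and 240 counts in NCI-H1581 but 9 and 2 counts in NCI-H1581R. The difference was 43.5-fold (log2 fold change -5.44, SE 0.55, edgeR adjusted p = 0.00144). LAMA4 (chr6:112107931-112254939, minus strand), the α4 chain found in vessel walls, had 125 and 200 counts in NCI-H1581 and 0 and 1 counts in NCI-H1581R. Per library size, the ratio of the summed counts was 339, with an exact 95% interval of 60.5 to 13443 that covers counting error only (edgeR adjusted p = 0.00248). These 3 falls were called in each fit that left out a library. Of 3 endothelial markers, CDH5 and VWF were at or below 0.0297 CPM in all libraries of both groups. PECAM1 was at 0.208 to 0.449 CPM in NCI-H1581 and at 0 to 0.178 CPM in NCI-H1581R, and its part in the LAMA4 result was not tested.

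The other laminin genes moved less. LAMA5 had 147 and 163 CPM in NCI-H1581 and 185 and 285 CPM in NCI-H1581R (edgeR adjusted p = 0.186). LAMC1 had 383 and 398 CPM against 472 and 549 CPM (edgeR adjusted p = 0.243), and LAMB2 overlapped at 286 and 318 CPM against 250.1 and 344 CPM. LAMC3, the γ3 chain, stood at 111 and 117 CPM in NCI-H1581 and 60.1 and 83.4 CPM in NCI-H1581R. Its adjusted p was 0.104 in edgeR. A fit that blocked on the replicate number called it (adjusted p = 0.0520), beside 18.1% of all genes. LAMB1 was scarce in both groups, with 50 and 50 counts against 48 and 55 counts.

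The sequence upstream of the genes with the furthest change is shown to give the context of their start sites. RefSeq promoter windows (GRCh38.p14), which run from 250 bases before to 50 bases after a start, were at hand for 25 of the 35 members. Of the 7 called genes, ITGA8, LAMA2 and LAMA4 have a single window each. Capitals mark GGGCGG or its reverse complement CCGCCC, the letters of the GC box bound by SP1, and overlapping matches run together.

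ITGA8 (chr10:15719873-15720172, minus strand): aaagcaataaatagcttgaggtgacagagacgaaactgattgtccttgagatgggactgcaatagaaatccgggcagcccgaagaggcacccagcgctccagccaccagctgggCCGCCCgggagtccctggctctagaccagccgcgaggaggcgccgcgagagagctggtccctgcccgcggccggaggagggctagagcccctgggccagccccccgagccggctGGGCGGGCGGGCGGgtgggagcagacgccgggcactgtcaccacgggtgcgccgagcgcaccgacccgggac

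LAMA2 (chr6:128882888-128883187, plus strand): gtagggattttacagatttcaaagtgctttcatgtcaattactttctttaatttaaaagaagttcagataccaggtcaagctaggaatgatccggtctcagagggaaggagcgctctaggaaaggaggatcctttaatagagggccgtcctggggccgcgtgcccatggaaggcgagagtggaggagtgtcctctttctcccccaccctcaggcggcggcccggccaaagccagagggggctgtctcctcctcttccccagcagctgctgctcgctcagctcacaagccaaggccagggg

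LAMA4 (chr6:112254518-112254817, minus strand): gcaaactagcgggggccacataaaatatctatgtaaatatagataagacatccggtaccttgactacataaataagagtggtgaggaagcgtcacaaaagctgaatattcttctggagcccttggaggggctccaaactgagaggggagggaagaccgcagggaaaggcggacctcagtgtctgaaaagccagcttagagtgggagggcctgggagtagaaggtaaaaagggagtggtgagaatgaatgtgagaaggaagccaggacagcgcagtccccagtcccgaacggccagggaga

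The ITGA8 window holds 4 matches to the GC box letters, 27 CG dinucleotides and 69.3% G and C. The LAMA2 and LAMA4 windows hold 0 matches, with 10 and 8 CG dinucleotides and 55.3% and 51.3% G and C. Of the 35116 windows of all genes, 45.0% hold a match on either strand, and the median window has 58.7% G and C. The letters TATAAA (11.5% of all windows) and TGACTCA (4.95%) were searched on both strands too and are in none of the 3 windows. The LAMA4 window starts transcription 372 bases from the outermost start in GENCODE, so other LAMA4 starts lie outside it.

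In the NCI-H1703 background the called changes ran from -2.14 to 0.86 on the log2 scale, and those of ITGA3 and LAMA2 had the opposite sign to NCI-H1581R. Of the 34 members, 8 were called, 4 higher and 4 lower. Of all genes 14.7% were called, 7.06% higher and 7.67% lower. ITGA5, ITGAV, LAMA2 and LAMC1 rose, and ITGB4, ITGA3, ITGA6 and ITGA9 fell. The median log2 fold change was -0.10, beside 0.00 over all genes, and the CPM of the groups did not overlap for 20 members, beside 51.3% of all genes. In the fit with the replicate block, 14 members were called, 7 in each direction, beside 34.9% of all genes (18.2% higher and 16.7% lower). The blocked fit of a line keeps fewer residual degrees of freedom than the 2 of the fit without the block. The 6 added by the block were ITGB1 (adjusted p = 0.0694), ITGA2 (0.0277) and LAMB2 (0.000712), which were higher, and ITGB5 (0.0742), LAMA5 (0.0615) and LAMC3 (0.00601), which were lower.

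Of the 3 laminin-binding α chains, 2 fell. ITGA3 had 693 and 641 CPM in NCI-H1703 and 335 and 340.1 CPM in NCI-H1703R, so it was 1.93-fold lower (log2 fold change -0.95, SE 0.09, edgeR adjusted p = 0.00441). ITGA6 (chr2:172427354-172506459, plus strand) fell from 106 and 111 CPM to 57.3 and 58.8 CPM, which is 1.83-fold (log2 fold change -0.87, SE 0.09, edgeR adjusted p = 0.00499). In both genes the replicates lay close together. The third gene, ITGA7, had only 2.51 and 1.76 CPM in NCI-H1703 and 1.64 and 1.69 CPM in NCI-H1703R. Summed over the 3 genes, the level was 84.6 ± 3.2 CPM per kb (SD, n = 2) in NCI-H1703 and 43.3 ± 0.5 in NCI-H1703R.

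ITGB4 (chr17:75721328-75757818, plus strand), the partner of α6 in hemidesmosomes, fell as well and was the single β chain called of 8. It had 12.8 and 9.99 CPM in NCI-H1703 and 5.08 and 3.51 CPM in NCI-H1703R, 2.60-fold lower (log2 fold change -1.38, SE 0.24, edgeR adjusted p = 0.0262). The summed epithelial markers given above were lower in the same libraries, at 6.76 to 8.41 CPM against 73.3 to 75.6 CPM, and their part in this result was not tested. ITGB1 was at 914 and 972 CPM against 1032 and 1051 CPM, and ITGB5 at 169.9 and 187 CPM against 141 and 171 CPM. Neither passed the test without the block.

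Of the 4 RGD-binding chains, 2 rose. ITGAV (chr2:186590010-186680901, plus strand) went from 269 and 314 CPM to 424 and 495 CPM, a 1.61-fold difference (log2 fold change 0.69, SE 0.13, edgeR adjusted p = 0.0328). ITGA5 (chr12:54395261-54419266, minus strand) went from 117 and 111 CPM to 148 and 172 CPM, or 1.43-fold (log2 fold change 0.52, SE 0.10, edgeR adjusted p = 0.0353). The other 2 genes of this class, ITGA2B and ITGA8, were not called. ITGA9 (chr3:37452115-37823507, plus strand), a receptor chain for tenascin and osteopontin, fell from 47 and 50 counts to 10 and 13 counts (log2 fold change -2.14, SE 0.49, edgeR adjusted p = 0.0549). ITGAE, at 17.1 and 18.5 CPM against 19.8 and 21.3 CPM, was not called, and neither was any other leukocyte chain.

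Among the laminins, 2 of 10 rose. LAMA2, which was nearly lost in NCI-H1581R, rose here from 4.81 and 4.67 CPM to 8.38 and 8.47 CPM (1.82-fold, log2 fold change 0.86, SE 0.17, edgeR adjusted p = 0.0377). LAMC1 (chr1:183023420-183145592, plus strand) had 477 and 524 CPM in NCI-H1703 and 604 and 740.3 CPM in NCI-H1703R. Its rise of 1.37-fold lay just within the threshold (log2 fold change 0.45, SE 0.13, edgeR adjusted p = 0.0978). LAMA5 overlapped, with 584 and 357 CPM against 479 and 328 CPM, and so did LAMB2, with 322 and 244 CPM against 416 and 320.5 CPM. In both genes replicate 1 was above replicate 2 in both groups. LAMC3 had 139 and 126 CPM against 108 and 103 CPM, and LAMB1 had 37.5 and 38.3 CPM against 40.4 and 36.0 CPM. LAMA1 stayed at 36 and 17 counts against 34 and 22 counts, and LAMA4 at 3 counts or fewer in every library of both groups.

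Fewer members were called when a library was left out, which also lowers the residual degrees of freedom from the 2 of the line fit. Without NCI-H1703 replicate 1, edgeR called 1 member, and without replicate 2 it called 0, with 9 at an unadjusted p under 0.05. The loss was general, since the calls over all genes went from 2683 to 293 and 274 in these fits. Without NCI-H1703R replicate 1 or replicate 2 the counts were 6 and 5 members, beside 1537 and 1686 of all genes. The signs of the 8 differences held in all these fits, with log2 fold changes of -1.67 to -1.14 for ITGB4, -0.99 to -0.91 for ITGA3, -0.93 to -0.82 for ITGA6 and -2.34 to -1.96 for ITGA9. For the genes that rose they were 0.40 to 0.64 for ITGA5, 0.56 to 0.82 for ITGAV, 0.85 to 0.87 for LAMA2 and 0.30 to 0.60 for LAMC1.

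**Figure D3:**
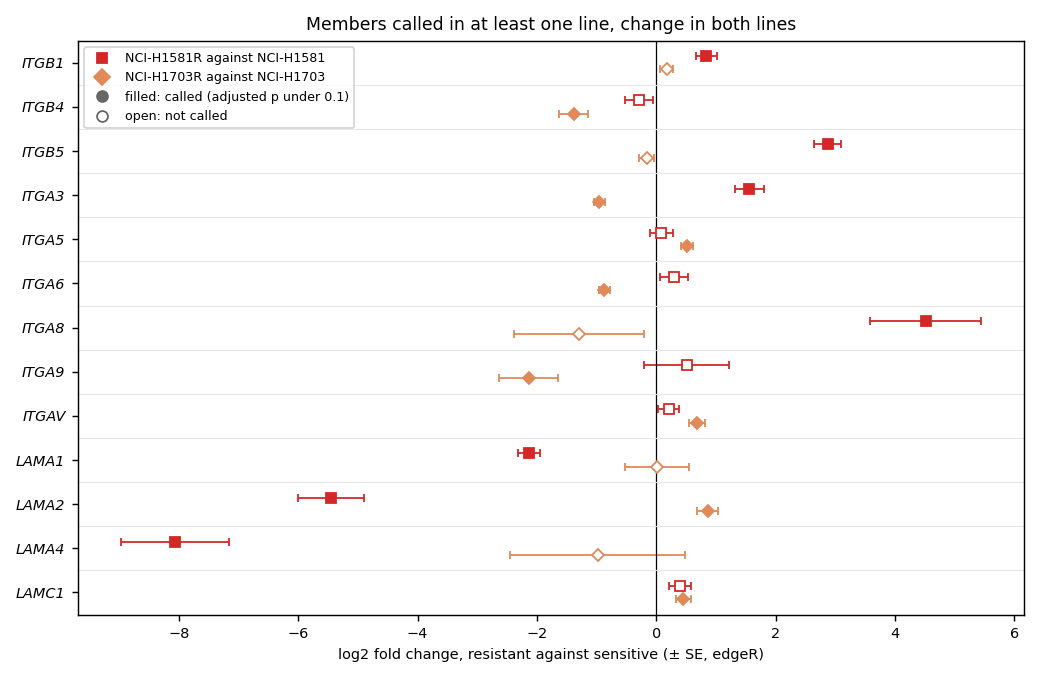
Log2 fold change with its SE (edgeR) of the 13 members called in at least 1 line, with squares for NCI-H1581R against NCI-H1581 and diamonds for NCI-H1703R against NCI-H1703. Filled symbols are called, and the value of LAMA4 in the first comparison is a fit to counts of 0 and 1 in NCI-H1581R. ITGA3 and LAMA2 are filled on opposite sides of 0.

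Only ITGA3 and LAMA2 were called in both lines, and each went in opposite directions. With the replicate block in each line, ITGB1 and LAMC3 were also called in both lines with the same sign, and ITGB5 with opposite signs. Over all genes, 615 of 18203 (3.38%) were called in both, 299 in the same and 316 in opposite directions. The difference between the changes in the lines was then tested as an interaction in a fit of all 8 libraries. It was called for 9 members, 2 higher and 7 lower in NCI-H1703. Of all genes 15.4% were called, 6.93% higher and 8.47% lower. The split of the members moved with the tool, to 5 higher and 6 lower in DESeq2 and 4 in each direction with legacy quasi-dispersions. ITGB5 changed by 2.87 on the log2 scale in NCI-H1581R and by -0.16 in NCI-H1703R, and the difference was -3.05 (SE 0.26, edgeR adjusted p = 0.000253). ITGA3 differed by -2.54 (SE 0.22, edgeR adjusted p = 0.000267) and LAMA2 by 6.28 (SE 0.50, edgeR adjusted p = 0.000141). These calls, and that of ITGA6 at -1.19 (SE 0.22, edgeR adjusted p = 0.0114), held in each of the 8 fits without a library.

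The other called differences rested on less. That of LAMA1 was 2.12 (SE 0.50, edgeR adjusted p = 0.0311), that of ITGB1 -0.69 (SE 0.17, edgeR adjusted p = 0.0405) and that of ITGB4 -1.11 (SE 0.36, edgeR adjusted p = 0.0935). ITGA8 and ITGA9 are low in counts, with differences of -5.83 (SE 1.94, edgeR adjusted p = 0.0954) and -2.67 (SE 0.84, edgeR adjusted p = 0.0884). The latter missed the threshold with the block (adjusted p = 0.105). Of 8 fits without a library, LAMA1 was called in 6, ITGB1 and ITGA8 in 2, and ITGB4 and ITGA9 in 1. Without a library the count fell to 5 or 4 members when any NCI-H1703 or NCI-H1703R library was left out, and to 5 without NCI-H1581 replicate 2. With the block, which called 18.9% of all genes, ITGAV was added, at 0.46 (blocked adjusted p = 0.0989), and so was LAMA5, at -0.82 (blocked adjusted p = 0.0613).

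The sensitive lines themselves were set side by side as a reference for the size of these changes. Between NCI-H1703 and NCI-H1581, 24 members were called, 16 higher and 8 lower in NCI-H1703, beside 62.9% of all genes (32.5% higher and 30.4% lower). Among these, the fitted difference was over 16-fold for 7 members, beside 13.3% of all genes, though that of ITGAX rests on a group at 0 counts. ITGA3 was 111-fold higher in NCI-H1703 (log2 fold change 6.80, SE 0.14, edgeR adjusted p = 7.61e-08). ITGB5 was 18.4-fold higher and LAMB1, the β1 laminin chain, 27.9-fold higher, at 37.5 and 38.3 CPM against 1.48 and 1.25 CPM. LAMA1 was 62.1-fold lower in NCI-H1703, and LAMA4 had 325 counts in NCI-H1581 and 4 in NCI-H1703, a ratio of 77.6 per library size (exact 95% interval 30.0 to 286). ITGAM, the αM chain of phagocytes, had 109 and 72 counts in NCI-H1703 and 3 and 0 in NCI-H1581, a ratio of 63.2 (exact 95% interval 21.3 to 309). ITGAX was called on 0 and 0 counts against 3 and 8, which is at least 1.69-fold lower against 3 counts per library, and was not called by DESeq2 (adjusted p = 0.232).

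ITGAM reached 3.57 CPM at most, and its partner chain ITGB2, the β2 chain of leukocytes, 1.32 CPM. The leukocyte markers PTPRC and CD3E were at 0 in all NCI-H1703 and NCI-H1703R libraries, and the myeloid marker CD14 was at 0.0299 to 0.162 CPM in NCI-H1703 and at 0.0264 to 0.0529 CPM in NCI-H1703R. By class, all 3 laminin-binding α chains were called, ITGA3 and ITGA6 higher and ITGA7 lower. ITGA6 was 6.92-fold higher and ITGA7 14.1-fold lower in NCI-H1703. Of the 4 RGD-binding chains, ITGA5 was 1.59-fold higher, while ITGAV was 2.05-fold lower and ITGA2B 13.9-fold lower. The NCI-H1703 replicates of ITGA2B had 21 and 0 counts, and DESeq2 did not call it (adjusted p = 0.147). LAMA5 was 3.02-fold higher and LAMC1 1.28-fold higher.

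Between the resistant variants, 22 members were called, 14 higher and 8 lower in NCI-H1703R, beside 52.5% of all genes (25.9% higher and 26.7% lower). The fitted difference was over 16-fold for 6 members, beside 13.4% of all genes, though that of ITGB7 rests on a group at 0 counts. This comparison shares libraries with those above. ITGA3 was 19.7-fold higher in NCI-H1703R (log2 fold change 4.30, SE 0.19) and ITGB5 2.26-fold higher (1.18, SE 0.16), beside 6.80 and 4.20 between the sensitive lines on the log2 scale. ITGA8 was 25.4-fold lower, LAMA2 59.1-fold higher and LAMB1 29.2-fold higher. ITGAM had 135 and 69 counts in NCI-H1703R and 1 and 0 in NCI-H1581R, a ratio of 207 (exact 95% interval 36.8 to 8234). ITGB7 had 50 and 23 counts against 0 and 0, so its level in NCI-H1703R was at least 12.4-fold higher, against 3 counts per library. The exons of ITGB7 share 1881 bases with ZNF740 on the opposite strand, and whether the libraries were stranded is not given in the sources used here. The same doubt touches ITGA4 and the small overlaps of ITGA7, ITGAE, LAMA5 and LAMB1. ITGB3 and ITGA1 share exon bases with genes on their own strand, which strand would not separate.

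Genes that work with the integrins were read from a list of 59, of which 57 could be tested. In NCI-H1581R against NCI-H1581, 21 of the 57 were called, 12 higher and 9 lower, beside the 15.1% of all genes given above. Without NCI-H1581 replicate 1 or 2 the counts were 10 and 11, and without NCI-H1581R replicate 1 the count was 34. Over all genes these fits called 1160, 1128 and 5185. Of 18 ligands, 8 rose and 4 fell. Among 28 adaptors and kinases, 4 rose and 2 fell, and of 11 lateral partners and other matrix receptors, 3 fell and none rose. FN1, which encodes fibronectin, the ligand of α5β1 and αv integrins, had 21 and 57 counts in NCI-H1581 and 28023 and 36165 counts in NCI-H1581R. In CPM these are 0.623 and 1.42 against 745 and 919, a 793-fold rise (log2 fold change 9.63, SE 0.38, edgeR adjusted p = 4.93e-05). NPNT, which encodes the α8β1 ligand nephronectin, rose from 3.03 and 2.20 CPM to 43.6 and 57.5 CPM (log2 fold change 4.30, SE 0.27, edgeR adjusted p = 0.00027). SPP1, which encodes the RGD ligand osteopontin, had 0 and 0 counts in NCI-H1581 and 352 and 240 counts in NCI-H1581R (edgeR adjusted p = 0.00327), while TNC, the gene of tenascin-C, fell from 23 and 22 counts to 1 and 1 (edgeR adjusted p = 0.0248). FERMT1, or kindlin-1, an integrin activator of epithelia, rose from 1.48 and 0.999 CPM to 27.2 and 22.0 CPM (log2 fold change 4.33, SE 0.30, edgeR adjusted p = 0.000352).

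The largest falls among partners with a mean of at least 5 CPM were those of SDC4, NID1 and TNS2. The heparan sulphate receptor SDC4 fell from 52.4 and 43.3 CPM to 14.8 and 10.4 CPM (log2 fold change -1.91, SE 0.23, edgeR adjusted p = 0.00341). NID1, or nidogen-1, which links laminin γ1 to collagen IV, fell from 141 and 97.7 CPM to 40.8 and 36.8 CPM (log2 fold change -1.61, SE 0.21, edgeR adjusted p = 0.00535). The adaptor TNS2 fell from 14.6 and 13.4 CPM to 5.05 and 5.87 CPM (log2 fold change -1.35, SE 0.23, edgeR adjusted p = 0.0146). The call of TNS2 was lost without either NCI-H1581 library, and the 4 fits that left out a library gave log2 fold changes from -1.48 to -1.23.

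In NCI-H1703R against NCI-H1703, 20 of the 57 partners were called, 4 higher and 16 lower, beside 14.7% of all genes (7.06% higher and 7.67% lower). Of the adaptors and kinases, 2 rose and 9 fell. The block raised the count to 30, with 6 higher and 24 lower, beside 34.9% of all genes (18.2% higher and 16.7% lower). NID1 rose here, from 463 and 435 CPM to 1478 and 1379 CPM (log2 fold change 1.70, SE 0.11, edgeR adjusted p = 0.00137). The kinase gene SRC and the tensin TNS3 rose by less, with log2 fold changes of 0.40 (SE 0.09, edgeR adjusted p = 0.0523) and 0.43 (SE 0.09, edgeR adjusted p = 0.0452). SRC stood at 46.9 and 43.9 CPM against 56.9 and 60.3 CPM, and TNS3 at 429 and 413 CPM against 558 and 549 CPM.

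SDC1, a syndecan of epithelia, fell in NCI-H1703R from 145 and 158 CPM to 48.4 and 50.7 CPM (log2 fold change -1.58, SE 0.10, edgeR adjusted p = 0.00135). TLN2, the gene of talin-2, fell from 19.0 and 19.0 CPM to 5.74 and 5.67 CPM (log2 fold change -1.70, SE 0.14, edgeR adjusted p = 0.0024). THBS1, or thrombospondin-1, fell from 394 and 499 counts to 7 and 104 counts (log2 fold change -3.09, SE 0.63, edgeR adjusted p = 0.04). TNS1, a tensin gene that was low throughout this line, had 20 and 14 counts in NCI-H1703 and 3 and 0 in NCI-H1703R (edgeR adjusted p = 0.0845). The NCI-H1703R replicates of THBS1 were far apart, and DESeq2 did not call it (adjusted p = 0.156). Without NCI-H1703 replicate 1 or 2, edgeR called 2 of the 57 partners, and without NCI-H1703R replicate 1 or 2 it called 12 and 13. Over all genes these fits called 293, 274, 1537 and 1686.

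Called in both lines were 7 partners, 2 in the same and 5 in opposite directions, beside the 3.38% of all genes given above. BCAR1, the adaptor p130Cas, and ADAM9 fell in both. FN1, NTN1 and THBS1 rose in NCI-H1581R and fell in NCI-H1703R, and NID1 and CD63 did the reverse. FN1 fell in NCI-H1703R from 9.03 and 10.2 CPM to 5.50 and 5.75 CPM (log2 fold change -0.74, SE 0.17, edgeR adjusted p = 0.0591). The difference of the changes between the lines was called for 19 of the 57 partners, 6 of them higher and 13 lower in NCI-H1703, beside 15.4% of all genes (6.93% higher and 8.47% lower).

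**Figure D4:**
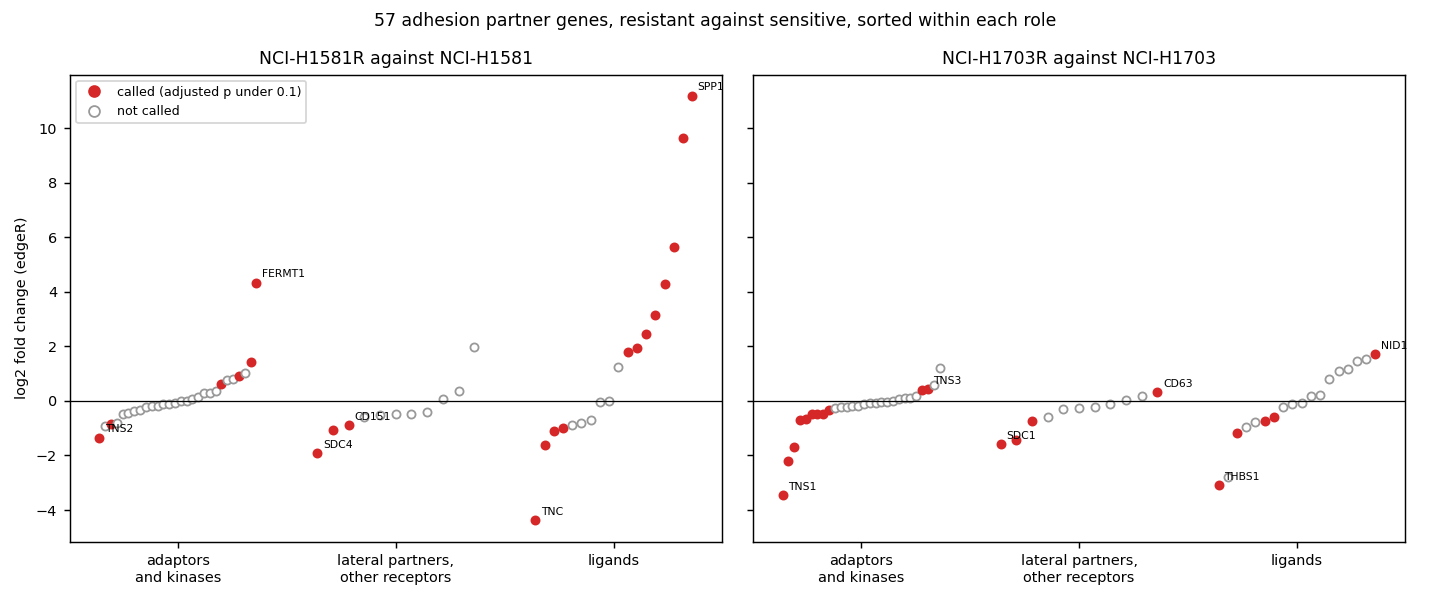
Log2 fold change (edgeR) of the 57 tested partner genes in both lines, sorted within 3 roles. Red points are called, and the lowest and highest called gene of each role are named. In NCI-H1581R the called ligands reach from TNC to SPP1, whose values are fits to counts of 0 or 1 in a group, and in NCI-H1703R 16 of 20 called partners lie below 0.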

How the data were processed

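RNA of 8 libraries was sequenced by the authors, quantified with Salmon against GRCh38 after trimming with cutadapt and summed to genes. The deposited table holds estimated counts per gene in whole numbers, not normalised. The transcript annotation, the Salmon version, the tximport scaling and strandedness are not given in the sources used here. Of 37441 genes, 15136 were at 0 everywhere. Groups and replicate numbers were taken from the labels.

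Genes with at least 10 counts over the 8 libraries (18203, 17177 of them with a symbol) were fitted with edgeR 4.0.16 in R 4.3.3 (TMM, bias-adjusted quasi-likelihood test, two-sided) on the 4 libraries of each comparison, and with an interaction on all 8. P-values were adjusted by Benjamini-Hochberg over all genes kept, and a gene was called under 0.1. SE is the log2 fold change over the square root of F. Fits were tested on simulated data with changes planted in well-counted genes only, so the recovery of changes at low counts was not covered. DESeq2 1.42.0, RLE, 2 other filters, a replicate block, 1 fit of all libraries, a threshold of 0.05, legacy quasi-dispersions (added after seeing the data) and leaving out each library were alternatives. In a fit without a library, the lone library of that group is assumed to vary like the other groups.

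Positions and exon lengths came from GENCODE 44 (GRCh38). Totals of 33800389 to 40031710 counts set the depth, and replicates differed by more than sampling noise. The chi-square per degree of freedom was 23.6 in NCI-H1581, 96.8 in NCI-H1581R, 23.3 in NCI-H1703 and 31.9 in NCI-H1703R. The protocol in the labels says that the culture was repeated for the second replicate, so the number marks a round of culture. Replicate differences correlated across 13020 genes with a mean of at least 50 counts at r = 0.133 between NCI-H1581 and NCI-H1581R, and at r = 0.369 between NCI-H1703 and NCI-H1703R. Between the lines r lay from -0.400 to -0.0216, so the block is within each line.

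Values in every library are given for members called in either line or for the difference of changes, the 3 highest per class and group by CPM per kb, and members over 16-fold apart between the sensitive lines. Of the partners, the 3 largest rises and falls per line with a mean of at least 5 CPM are given. FN1 in NCI-H1703R, SPP1, TNC, TNS1 and the partners called in both lines were named after their values were seen. Members and lists were chosen with earlier results of these data known.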

Additional observations from a re-analysis of the deposited data

Results flagged for a closer look

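The change with resistance differed between the lines, by the interaction term in edgeR, for 9 members and for 7 of the named partners. The value is the log2 change in the NCI-H1703 background minus that in the NCI-H1581 background. Among integrins it was -3.05 for ITGB5, -2.54 for ITGA3, -1.19 for ITGA6, -0.69 for ITGB1, -1.11 for ITGB4, -5.83 for ITGA8 and -2.67 for ITGA9. For the laminins LAMA1 and LAMA2 it was 2.12 and 6.28. Among the partners, FN1 differed by -10.39, THBS1 by -4.88, TLN2 by -2.50 and SDC1 by -1.19, and these were lower in the NCI-H1703 background. NID1 differed by 3.29, SDC4 by 2.07 and TNS2 by 1.38. ITGA3, LAMA2, FN1, THBS1 and NID1 were called in opposite directions in the lines. With 2 libraries in a group, no library could be tested as an outlier.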

How the results depend on the processing

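The alternatives were run gene by gene for the genes chosen by the naming rule, and none of these that was called changed sign. In fits without a library, 4 to 11 members were called in NCI-H1581R against NCI-H1581 and 0 to 6 in NCI-H1703R against NCI-H1703. For the difference of changes these fits called 4 to 9 members. The other alternatives called 6 to 10, 6 to 14 and 6 to 11 members, in that order. Over all alternatives the range was 18 to 25 members between the sensitive lines and 16 to 24 between the variants. Both were lowest with at least 10 counts in every library. For the partners, fits without a library gave 10 to 34, 2 to 13, 12 to 24, 37 to 42 and 33 to 42, in that order. In the same order, the other alternatives gave 18 to 31, 13 to 30, 15 to 25, 38 to 41 and 32 to 44. With the replicate block, 14 members (in place of 8) and 30 partners (in place of 20) were called in NCI-H1703R, and 6356 of all genes in place of 2683. The 13 partners called at an adjusted p under 0.05 and the 13 in the single fit of all 8 libraries were fewer than the 20 reported. Over all genes, the single fit called 4539 in NCI-H1581R, where the separate fit called 2743, and 1730 in NCI-H1703R. Beyond the genes named in the report, the block changed no call of a member within a line.

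With the longest annotated transcript as the length, the share of ITGB1 was 89.0% in NCI-H1581, 82.5% in NCI-H1581R, 79.6% in NCI-H1703 and 83.6% in NCI-H1703R, and that of ITGB5 3.83%, 14.4%, 19.0% and 15.8%. That of ITGAV was 70.1%, 71.8%, 17.7% and 34.03%. ITGA3 held 2.66% in NCI-H1581R, and LAMB2 38.6% in NCI-H1581 and 35.1% in NCI-H1581R. With that length LAMB2 was above LAMC1, at 35.9%, in NCI-H1581, where merged exons put LAMC1 first. Among low-count genes, DESeq2 called neither the difference of changes of ITGA9 (adjusted p = 0.130) nor ITGAX between the sensitive lines (0.232).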

Other observations

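The genes around the called members were read as a description of whether a chromosome region moved with them. Within 2 Mb of LAMA2, 11 protein-coding genes were tested in NCI-H1581R against NCI-H1581, with a median log2 fold change of -0.42, and 2 of them rose and none fell. Around LAMA4 the median over 18 genes was -0.06, with 1 higher and 3 lower. The 9 neighbours of LAMA1 had a median of -0.42, with 2 lower. The 8 neighbours of ITGB1 had a median of 0.33, with 3 higher and none lower. Medians were 0.02 over the 26 neighbours of ITGB5, 0.07 over the 60 of ITGA3 and 0.05 over the 24 of ITGA8. Of all genes in this comparison, 7.63% were called higher and 7.44% lower. In NCI-H1703R against NCI-H1703, the 27 neighbours of ITGA9 on chromosome 3 had a median of -0.39, with 7 lower and none higher. Of all genes there, 7.06% were called higher and 7.67% lower. The 60 neighbours of ITGA3 had a median of -0.0041, and medians around the other called members lay between -0.04 (ITGA5) and 0.25 (LAMA2).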
